A study of Rattus norvegicus with 36 samples.

Results

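Cav1, Cav2, Cav3, Ehd2, Pacsin2 and Pacsin3 code for proteins of the caveola, a flask-shaped pit of the plasma membrane. These 6 genes were taken by name from the 24275 genes that the count tables list, and each was found as 1 protein-coding gene. The set was chosen by gene name with earlier results of these data known, and it was selected on the Cav1 counts with the Plus A mimic against miR-125b in both oxygen conditions. For this reason Plus A against miR-125b is described for all 6 genes with no test, and Cav1 was tested only where neither of those mimics takes part.

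Caveolins are hairpin proteins that sit in the inner leaflet of the membrane. CAV1 is needed to form caveolae in most cell types, CAV2 assembles with CAV1 and reaches the surface with it, and CAV3 takes the place of CAV1 in skeletal and cardiac muscle. Cavins coat the pit from the cytosol, EHD2 is an ATPase at the neck that holds it at the surface, and PACSIN2 and PACSIN3 (syndapins) bend the membrane. Caveolae are known in muscle as a membrane reserve that flattens under stretch.

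The cells were H9C2, a line of rat cardiac myoblasts, and all groups share this line. They were transfected with 25 nmol/L of a mimic control (MC), a miR-125b mimic or the mimic of a miR-125b isomiR, a form of the microRNA with bases added or removed at its 3′ end. Each mimic was used in normoxia and in hypoxia, and hypoxic cells were kept in serum-free low-glucose medium while normoxic cells had fresh medium, so that the effects of oxygen and medium cannot be told apart. RNA was sequenced in 36 libraries, 3 in each of 12 groups, and the counts of 33 libraries in 11 groups were used (MC in hypoxia only, and each of the 5 mimics of the miR-125b family in both oxygen conditions). Normoxia MC enters only through a mean that the authors gave, and its counts were not used here. The sources do not say that replicates came from separate cultures, so the p-values measure only the spread between these libraries, which may be technical.

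The mimics differ from each other only at the 3′ end, which is why they are shown whole. The mature rno-miR-125b-5p was read from RefSeq, at chr11:29732588-29732609 on the plus strand of GRCr8, and the isomiRs were built from it by the change that each label names, read from the 3′ end. Sequences run 5′ to 3′, and capitals mark the seed (bases 2 to 8).
miR-125b: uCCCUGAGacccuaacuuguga
Plus A: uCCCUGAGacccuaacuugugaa
Trim A: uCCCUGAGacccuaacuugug
Trim AG: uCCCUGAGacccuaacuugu
Trim AGU: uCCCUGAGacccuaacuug
All 5 share the same seed, and their lengths run from 19 bases (Trim AGU) to 23 bases (Plus A). The sequence of MC was not used here.

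Library totals were 28361216 to 42672584 counts, and counts of the members were 667 (Cav3) to 12735 (Ehd2) per library, so no value of a member rests on a few reads. The 3 libraries of Hypoxia Trim AG had the highest totals (39940087 to 42672584 counts), and the next highest was 34505938 (Hypoxia Trim A replicate 3). Depth is thus tied to the Hypoxia Trim AG group. Levels are given as CPM, the count of a gene scaled to the library total. The muscle markers Myod1, Myog and Tnnt2 had counts in all 33 libraries. Des and Ckm, also muscle markers, were low (0.855 to 4.98 CPM and 0.624 to 6.18 CPM). The summed level of the endothelial markers was 0.753 to 4.50 CPM, with Emcn at 0 in 29 libraries and Tek at 0.690 to 4.46 CPM. This sum covers only Tie1, Tek and Emcn, since Pecam1, Cdh5 and Kdr were not among the listed genes. The adipocyte markers summed to 0.322 to 1.83 CPM, with Fabp4 at 0 in 32 libraries, and the leukocyte markers to 1.30 to 4.0 CPM, with Ptprc at 0 in 15. Of the fibroblast markers, Col1a1 was high (5403 to 27702 CPM) while Pdgfra was at 0.025 to 0.846 CPM and Dcn at 0.797 to 44.2 CPM, and of the smooth muscle markers Acta2 was high (3921 to 11155 CPM). In such bulk RNA, fewer cells of a type and less RNA per cell cannot be told apart. The libraries of Hypoxia Trim AGU lay further apart than those of any other group, at a mean distance of 0.859 log2 units per gene against 0.450 to 0.530 elsewhere.

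In normoxia, the first replicates of Plus A and of miR-125b went against the other libraries of their groups. Over the 200 genes that were lower with Plus A than with miR-125b in hypoxia, the median deviation from the mean of these 6 normoxia libraries was 0.22, -0.20 and -0.23 log2 units in replicates 1, 2 and 3 labelled Plus A. In the libraries labelled miR-125b it was -0.21, 0.23 and 0.15. The nearest library to Plus A replicate 1 over 16285 genes was miR-125b replicate 3 (distance 0.460), and the nearest to miR-125b replicate 1 was Plus A replicate 2 (0.472). Whether the labels of this pair were exchanged could not be settled from the files, and what the normoxia values of both groups stand for depends on it. The libraries are kept under their labels below, and values without them are given beside the results of the members.

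Cav1 lies on chromosome 4 at 44597123 to 44630200 (plus strand) and Cav2 just before it at 44573264 to 44580638, with 16484 bases between the pair. Cav3 is on the same chromosome at 144382945 to 144398917 (plus strand). Ehd2 is on chromosome 1 at 77847600 to 77865870 (minus strand), Pacsin2 on chromosome 7 at 124223633 to 124317379 (minus strand) and Pacsin3 on chromosome 3 at 80072489 to 80081047 (plus strand). The positions are those of the tables, whose genome build is not given in the sources used here. No other listed gene overlaps any of them.

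The members differed in abundance. Per length, in FPKM, Ehd2 had the highest median over the 33 libraries (161 FPKM), followed by Cav1 (98.7 FPKM) and Pacsin3 (45.3 FPKM). Pacsin2 (31.6 FPKM), Cav3 (31.2 FPKM) and Cav2 (28.8 FPKM) were close to each other. The muscle caveolin was thus less abundant than Cav1 in these myoblasts by this measure. Between libraries Cav1 varied the most, with 3.82-fold from its lowest to its highest CPM, against 2.67-fold for Cav2, 2.58-fold for Pacsin3, 2.26-fold for Cav3, 2.01-fold for Ehd2 and 1.98-fold for Pacsin2.

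Cav1, the caveolin that caveolae of most cells depend on, was low with Plus A. In hypoxia it had 100.2, 93.9 and 94.5 CPM with Plus A and 241, 246 and 241 CPM with miR-125b. In normoxia it had 269, 97.95 and 98.3 CPM in the libraries labelled Plus A. Those labelled miR-125b had 102, 282 and 263 CPM. The hypoxia groups are far apart and the normoxia groups overlap, because the first replicate of each lies within the range of the other. Over all groups Cav1 fell into a lower set of 6 libraries at 93.9 to 102 CPM and an upper set of 27 libraries at 216 to 358 CPM, with none between. The lower set held 5 of the 6 libraries labelled Plus A and 1 other, which was replicate 1 of Normoxia miR-125b.

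**Figure D1:**
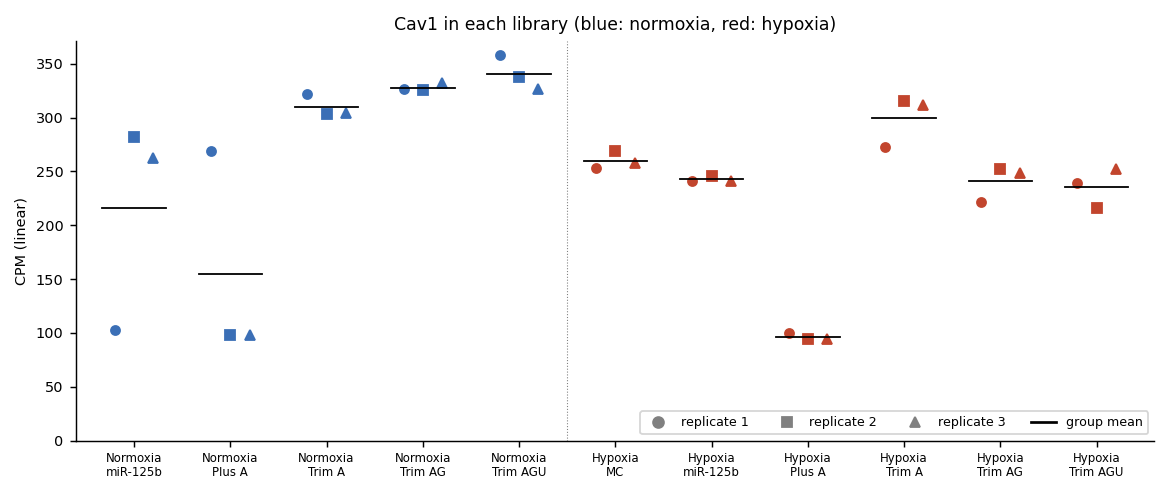
Cav1 in CPM (linear axis from 0) for each of the 33 libraries, with normoxia in blue and hypoxia in red. Symbols mark the replicate number and bars the group mean; 6 libraries lie at 93.9 to 102 CPM and the other 27 at 216 CPM or more.

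As a description of the contrast that chose the genes, the log2 fold change of Cav1 with Plus A against miR-125b was -1.35 (SE 0.04, n = 3 per group) in hypoxia. In normoxia it was -0.48 (SE 0.46) with the labels as given. Without both first replicates, an alternative chosen after seeing the data, it was -1.45 (SE 0.06, n = 2 per group), so the normoxia value turns on those libraries. Among all genes, 2.03% of 15134 were called in hypoxia and 0% of 14781 in normoxia, where 404 genes had an unadjusted p below 0.05 by edgeR and DESeq2 called 1. Here and below, called means a Benjamini-Hochberg adjusted p below 0.05 together with a change of 1.5-fold or more.

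In this contrast the other members had smaller values. In hypoxia their log2 fold changes with Plus A against miR-125b were 0.13 (SE 0.05) for Cav2, -0.24 (SE 0.08) for Cav3, -0.04 (SE 0.04) for Ehd2, -0.07 (SE 0.04) for Pacsin2 and -0.05 (SE 0.09) for Pacsin3. In normoxia they lay between -0.05 (Pacsin2) and 0.07 (Pacsin3), and without both first replicates between -0.14 (Pacsin2) and 0.15 (Pacsin3). Cav2, the nearest neighbour of Cav1 on the chromosome and its partner in the oligomer, had 65.7, 69.3 and 70.3 CPM in the normoxia libraries labelled Plus A. It had 69.8, 70.5 and 66.9 CPM in those labelled miR-125b. The libraries that stand apart by Cav1 do not stand apart by Cav2. In normoxia Pacsin2 had 146, 131 and 127 CPM in the libraries labelled Plus A and 131, 146 and 143 CPM in those labelled miR-125b. Pacsin3 had 77.0, 85.6 and 79.1 CPM and 80.8, 73.6 and 76.9 CPM. In both genes, replicate 1 of miR-125b and replicates 2 and 3 of Plus A did not overlap with the other libraries of these groups, as for Cav1. Cav3 and Ehd2 were not divided in this way.

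Against MC, the trimmed isomiRs gave no called change of Cav1. In hypoxia it had 254, 269 and 258 CPM with MC, and 273, 315 and 312 CPM with Trim A. It had 221, 253 and 249 CPM with Trim AG and 239, 216 and 252 CPM with Trim AGU. Trim A lay above MC with no overlap, by a log2 fold change of 0.25 (SE 0.08, edgeR adjusted p = 0.0307), which is under the 1.5-fold threshold. Trim AG (-0.05, SE 0.08, edgeR adjusted p = 0.657) and Trim AGU (-0.0020, SE 0.09, edgeR adjusted p = 0.988) overlapped with MC. Set against MC with no test, the log2 fold change of Cav1 in hypoxia was -0.06 (SE 0.03) with miR-125b and -1.41 (SE 0.05) with Plus A.

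In normoxia the trimmed isomiRs held the highest Cav1 values. Cav1 had 322, 303 and 304 CPM with Trim A, 326, 325 and 332 CPM with Trim AG and 358, 338 and 327 CPM with Trim AGU. Against normoxia with the same mimic, the hypoxia level was lower by a log2 fold change of -0.44 (SE 0.09, edgeR adjusted p = 0.00223) under Trim AG and of -0.49 (SE 0.12, edgeR adjusted p = 0.0217) under Trim AGU. Under Trim A the difference was -0.12 (SE 0.09, edgeR adjusted p = 0.278). None of these passed the 1.5-fold threshold. With no test, the log2 fold change of hypoxia against normoxia was 0.09 (SE 0.29) under miR-125b and -0.79 (SE 0.32) under Plus A, and without the first normoxia replicate of each it was -0.25 (SE 0.04) and -0.16 (SE 0.05). Set against miR-125b, also with no test, Cav1 in normoxia was at 0.53 (SE 0.29) with Trim A, 0.56 (SE 0.29) with Trim AG and 0.65 (SE 0.30) with Trim AGU, and without the first replicate of miR-125b at 0.19, 0.23 and 0.32. In hypoxia these values were 0.31, 0.0067 and 0.05. Ordered by group mean, Cav1 ran from 96.2 CPM in Hypoxia Plus A to 341 CPM in Normoxia Trim AGU. Of the 10 steps between neighbouring groups, 7 had overlapping ranges, and the 3 without overlap lay between Hypoxia miR-125b and Hypoxia MC, Hypoxia MC and Hypoxia Trim A, and Normoxia Trim A and Normoxia Trim AG.

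Against MC in hypoxia, all 5 mimics share the same 3 control libraries, so the comparisons are not independent of each other. With miR-125b, 2 of the 5 tested members were called, where 21.9% of 15143 genes were called. With Plus A it was 2 of 5, where 24.8% of 15159 genes were called, and with Trim A 4 of 6, where 28.1% of 15183 genes were called. With Trim AG it was 2 of 6, where 37.2% of 15315 genes were called, and with Trim AGU 1 of 6, where 23.8% of 15026 genes were called. With 5 or 6 members, such counts do not set the caveolar genes apart from the rest.

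Cav2, which needs CAV1 to reach the surface, was higher with every mimic than with MC in hypoxia. It had 41.0, 45.5 and 40.8 CPM with MC, 83.6, 84.3 and 80.9 CPM with miR-125b and 96.7, 92.2 and 86.2 CPM with Plus A. It had 82.3, 102 and 91.0 CPM with Trim A, 82.9, 109 and 103 CPM with Trim AG, and 79.1, 54.3 and 88.2 CPM with Trim AGU. No library with a mimic of the miR-125b family overlapped with MC, and the lowest of them was Trim AGU replicate 2. The log2 fold change was 1.00 with miR-125b (SE 0.05, edgeR adjusted p = 3.15e-08) and 1.13 with Plus A (SE 0.07, 4.32e-07). For Trim A it was 1.16 (SE 0.10, 5.61e-05), for Trim AG 1.27 (SE 0.12, 3.03e-05) and for Trim AGU 0.93 (SE 0.15, 0.00692). All 5 passed the threshold. Without replicate 2 of Trim AGU the value was 1.06.

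The ratio of Cav1 to Cav2 (FPKM over FPKM) was highest with MC. It was 6.02, 5.73 and 6.14 in the MC libraries in hypoxia, and 2.80, 2.84 and 2.90 with miR-125b. With Plus A it was 1.01, 0.990 and 1.07, so that the pair had nearly equal FPKM there. With the trimmed isomiRs it was 2.26 to 3.87 in hypoxia and 4.84 to 5.52 in normoxia. In replicates 1, 2 and 3 of normoxia it was 1.43, 3.89 and 3.82 with miR-125b and 3.98, 1.37 and 1.36 with Plus A, divided as Cav1 was. These ratios contain the Cav1 values that chose the genes and were not tested.

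Normoxia libraries held 53.4 to 70.5 CPM of Cav2, above every MC library of hypoxia. The other hypoxia libraries lay above that range, except replicate 2 of Trim AGU (54.3 CPM). Against normoxia, Cav2 was called higher in hypoxia under Trim AG (log2 fold change 0.68, SE 0.11, edgeR adjusted p = 0.000897). Under Trim A it was 0.58 (SE 0.10, edgeR adjusted p = 0.00182), which is just under the threshold of 1.5-fold (0.585), and it passed under 5 of the alternatives. Under Plus A, miR-125b and Trim AGU it was 0.31, 0.18 and 0.24, and without the first normoxia replicate 0.26 under Plus A and 0.19 under miR-125b.

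**Figure D2:**
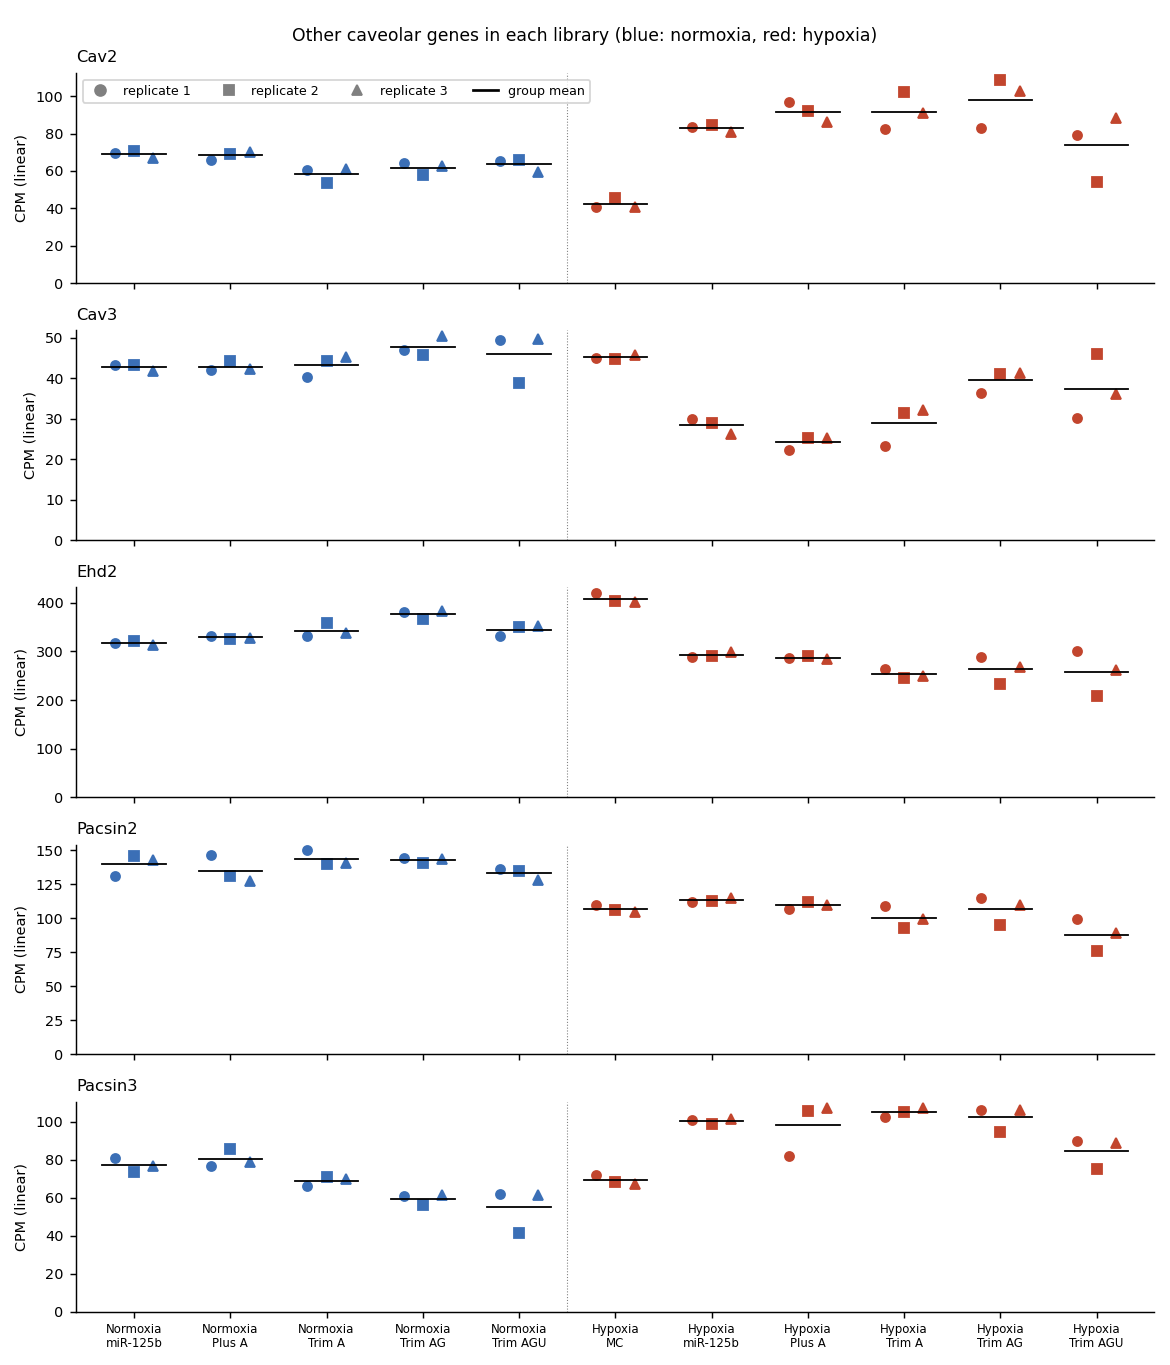
CPM (linear axes from 0) of Cav2, Cav3, Ehd2, Pacsin2 and Pacsin3 in each of the 33 libraries, with normoxia in blue and hypoxia in red, symbols for the replicate number and bars for the group mean. Cav2 is lowest in the MC libraries, at 40.8 to 45.5 CPM, and every hypoxia library of Pacsin2 (75.8 to 115 CPM) lies under every normoxia library (127 to 150.3 CPM).

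Cav3, the muscle caveolin, was lower in hypoxia with miR-125b, Plus A and Trim A than with MC. It had 45.0, 44.9 and 45.7 CPM with MC and 30.0, 29.1 and 26.2 CPM with miR-125b. It had 22.3, 25.3 and 25.3 CPM with Plus A and 23.3, 31.6 and 32.2 CPM with Trim A. None of these libraries reached the MC range. The log2 fold changes were -0.63 (SE 0.06, edgeR adjusted p = 2.7e-06) with miR-125b, -0.87 (SE 0.06, 1.61e-06) with Plus A and -0.59 (SE 0.12, 0.00427) with Trim A, and all 3 were called. The call with miR-125b was lost without replicate 3 of that group (-0.58) and the call with Trim A without replicate 1 (-0.45), both by the fold threshold and not by the adjusted p. The Trim A call was also lost in a joint fit of all libraries (-0.58).

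Trim AG and Trim AGU gave no call of Cav3 against MC. It had 36.4, 41.2 and 41.4 CPM with Trim AG and 30.1, 46.2 and 36.2 CPM with Trim AGU. Trim AG lay under MC with no overlap, but its log2 fold change of -0.12 (SE 0.08, edgeR adjusted p = 0.199) was not called, and that of Trim AGU was -0.11 (SE 0.20, edgeR adjusted p = 0.699). Set against miR-125b in hypoxia, Cav3 was at 0.50 with Trim AG (SE 0.09, edgeR adjusted p = 0.00297) and at 0.51 with Trim AGU (SE 0.21, edgeR adjusted p = 0.195), under the fold threshold in both. The Trim AGU values depend on replicate 2, the highest of its group for Cav3 and the library with the fewest genes detected. Without it Cav3 with Trim AGU was at -0.36 against MC (edgeR adjusted p = 0.0126) and at 0.26 against miR-125b (edgeR adjusted p = 0.125).

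Normoxia libraries kept Cav3 at 38.8 to 50.5 CPM under all 5 mimics. Hypoxia was lower than normoxia under miR-125b (log2 fold change -0.67, SE 0.07, edgeR adjusted p = 2.97e-05), Plus A (-0.93, SE 0.07, 8.37e-06) and Trim A (-0.65, SE 0.13, 0.00309). Under Trim AG it was -0.26 (SE 0.09, edgeR adjusted p = 0.0276) and under Trim AGU -0.24 (SE 0.22, edgeR adjusted p = 0.438). Without the first normoxia replicate, the values were -0.67 under miR-125b and -0.97 under Plus A, and both remained called. Under Trim A the call was lost without replicate 1 of Hypoxia Trim A (-0.51) and with library totals instead of the TMM scaling factors of edgeR (-0.58). The mean of Cav3 was 45.2 CPM in Hypoxia MC and 42.8 CPM in Normoxia miR-125b, so the MC level under hypoxia lay within the range of the normoxia groups.

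Most muscle markers were called lower against MC with every mimic of the miR-125b family. Of the 8 markers (Des, Tnnt2, Myog, Myod1, Acta1, Actc1, Ckm and Srl), 6 were called lower under both miR-125b and Trim AG, 7 under both Plus A and Trim AGU and all 8 under Trim A, and 0 were called higher. Their summed level was 927 to 943 CPM with MC and 139 to 251 CPM in the other hypoxia groups. It was 204 to 316 CPM in normoxia, where Cav3 was near its MC level. With Trim AG and Trim AGU the median log2 fold change of the muscle markers was -2.64 and -2.15, while Cav3 was at -0.12 and -0.11 and was not called. Srl and Actc1 had few reads with the mimics, with means of 0.042 to 0.252 CPM for Srl and 0.293 to 1.45 CPM for Actc1 over the other hypoxia groups. Other marker lists moved as well. Of the smooth muscle markers, 1 to 3 were called higher with each mimic against MC, and their sum was 5724 to 6033 CPM with MC and 9583 to 16799 CPM in the other hypoxia groups. Of the fibroblast markers, Dcn was called lower with all 5 mimics, and with Trim AG 4 of 5 were called lower, with a sum of 8778 to 18240 CPM against 28292 to 29383 CPM with MC. Col1a1 was called higher with miR-125b and Plus A. The endothelial marker Tek was called lower with all 5 mimics (-1.04 to -1.89). The sum of the listed endothelial markers (Tie1, Tek and Emcn) was 4.30 to 4.50 CPM with MC and 0.753 to 2.75 CPM in the other hypoxia groups. Of the leukocyte markers 1 was called lower with each mimic, and of the adipocyte markers none was called. The part of these lists in the values of Cav3 and of the other members was not tested.

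Ehd2, the ATPase that holds caveolae at the surface, was highest in Hypoxia MC and lower in each other hypoxia group. It had 421, 403 and 401 CPM with MC, and 289, 291 and 299 CPM with miR-125b. With Plus A it had 286, 291 and 285 CPM, and with Trim A 265, 245 and 250 CPM. With Trim AG it had 289, 233 and 268 CPM, and with Trim AGU 300.0, 209 and 262 CPM. No library overlapped with MC. The log2 fold change was -0.44 with miR-125b (SE 0.03, edgeR adjusted p = 4.7e-07) and -0.48 with Plus A (SE 0.04, 4.76e-06). For Trim A it was -0.65 (SE 0.06, 0.000118), for Trim AG -0.57 (SE 0.09, 0.000538) and for Trim AGU -0.53 (SE 0.12, 0.0174). Only that of Trim A passed the fold threshold. The values of Trim AG and Trim AGU are close to it, and both were called when counts were scaled by library totals instead of TMM factors (-0.63 and -0.67).

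In normoxia Ehd2 had 312 to 384 CPM. With the same mimic, hypoxia was lower by -0.20 (SE 0.04, edgeR adjusted p = 0.00254) under miR-125b, -0.30 (SE 0.05, 0.000588) under Plus A, -0.51 (SE 0.07, 0.000574) under Trim A, -0.51 (SE 0.09, 0.00122) under Trim AG and -0.39 (SE 0.14, 0.0648) under Trim AGU. None of these was called. Without the first normoxia replicate, the values were -0.20 under miR-125b and -0.32 under Plus A. Across the 33 libraries Ehd2 ran opposite to Cav2 (Pearson r = -0.81 on log2 CPM) and to Pacsin3 (r = -0.78), and these r are descriptions over libraries that share groups.

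Pacsin3, the syndapin enriched in muscle, was higher with the mimics than with MC. In hypoxia it had 72.1, 68.4 and 67.2 CPM with MC, 101, 98.9 and 102 CPM with miR-125b and 82.2, 106 and 107 CPM with Plus A. It had 103, 105 and 107 CPM with Trim A, 106, 94.9 and 106 CPM with Trim AG, and 90.2, 75.1 and 88.7 CPM with Trim AGU. Each of these libraries was above MC. It was called higher with Trim A (log2 fold change 0.65, SE 0.07, edgeR adjusted p = 0.000125) and Trim AG (0.63, SE 0.07, 0.000129), the latter not with library totals instead of TMM (0.57). With miR-125b it was 0.57 (SE 0.04, edgeR adjusted p = 3.24e-07), with Plus A 0.53 (SE 0.09, 0.000573) and with Trim AGU 0.43 (SE 0.09, 0.0153), all under the fold threshold. Without replicate 1 of Plus A, which had the lowest value of its group, the Plus A value was 0.64 and was called.

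Against normoxia, Pacsin3 was higher in hypoxia under Trim AG (log2 fold change 0.79, SE 0.08, edgeR adjusted p = 4.61e-05) and under Trim AGU (0.66, SE 0.18, 0.0274). In normoxia it had 60.8, 56.3 and 61.3 CPM with Trim AG and 62.04, 41.7 and 61.3 CPM with Trim AGU. These were its lowest groups, and Trim AGU replicate 2 was the lowest library of all. The Trim AGU call was lost with 5 of the 6 libraries left out in turn (adjusted p 0.0503 to 0.0764), and without replicate 2 of Normoxia Trim AGU the value was 0.49. It was also lost with the replicate number as a block (0.68, edgeR adjusted p = 0.0557). Under miR-125b, Plus A and Trim A the log2 fold changes of 0.30, 0.18 and 0.53 were not called, and without the first normoxia replicate they were 0.33 under miR-125b and 0.12 under Plus A.

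Pacsin2, the widely expressed syndapin, had lower values in hypoxia than in normoxia under every mimic. Its 18 hypoxia libraries had 75.8 to 115 CPM and its 15 normoxia libraries 127 to 150.3 CPM. It was the only member whose oxygen conditions did not overlap over all libraries. The share of all genes without such overlap is not given here. Hypoxia was lower than normoxia by -0.38 (SE 0.05, edgeR adjusted p = 0.000162) under miR-125b, -0.41 (SE 0.06, 0.000389) under Plus A, -0.59 (SE 0.08, 0.000491) under Trim A, -0.42 (SE 0.08, 0.00282) under Trim AG and -0.56 (SE 0.12, 0.0131) under Trim AGU on the log2 scale. Only the value under Trim A passed the fold threshold, narrowly, and it fell below the threshold without replicate 1 of Normoxia Trim A (-0.55) or replicate 2 of Hypoxia Trim A (-0.55), and with library totals instead of TMM (-0.51) or a joint fit of all libraries (-0.57). Without the first normoxia replicate, the values were -0.43 under miR-125b and -0.37 under Plus A. Against MC in hypoxia, Pacsin2 had 110, 106 and 105 CPM with MC, and no mimic gave a called change (log2 fold changes of -0.14 to 0.12).

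Between oxygen conditions, 1 of the 5 tested members was called under miR-125b, where 20.9% of 15028 genes were called. Under Plus A it was 1 of 5, where 22.8% of 15032 genes were called, and under Trim A 2 of 6, where 26.5% of 14973 genes were called. Under Trim AG it was 2 of 6, where 32.8% of 15256 genes were called, and under Trim AGU 1 of 6, where 27.0% of 14811 genes were called. These shares are close to the background. As a check of the labels, 6 of 6 tested hypoxia genes were called higher in hypoxia under miR-125b, Plus A, Trim A and Trim AGU and 4 of 6 under Trim AG, with Bnip3 at log2 fold changes of 1.86 to 2.75.

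**Figure D3:**
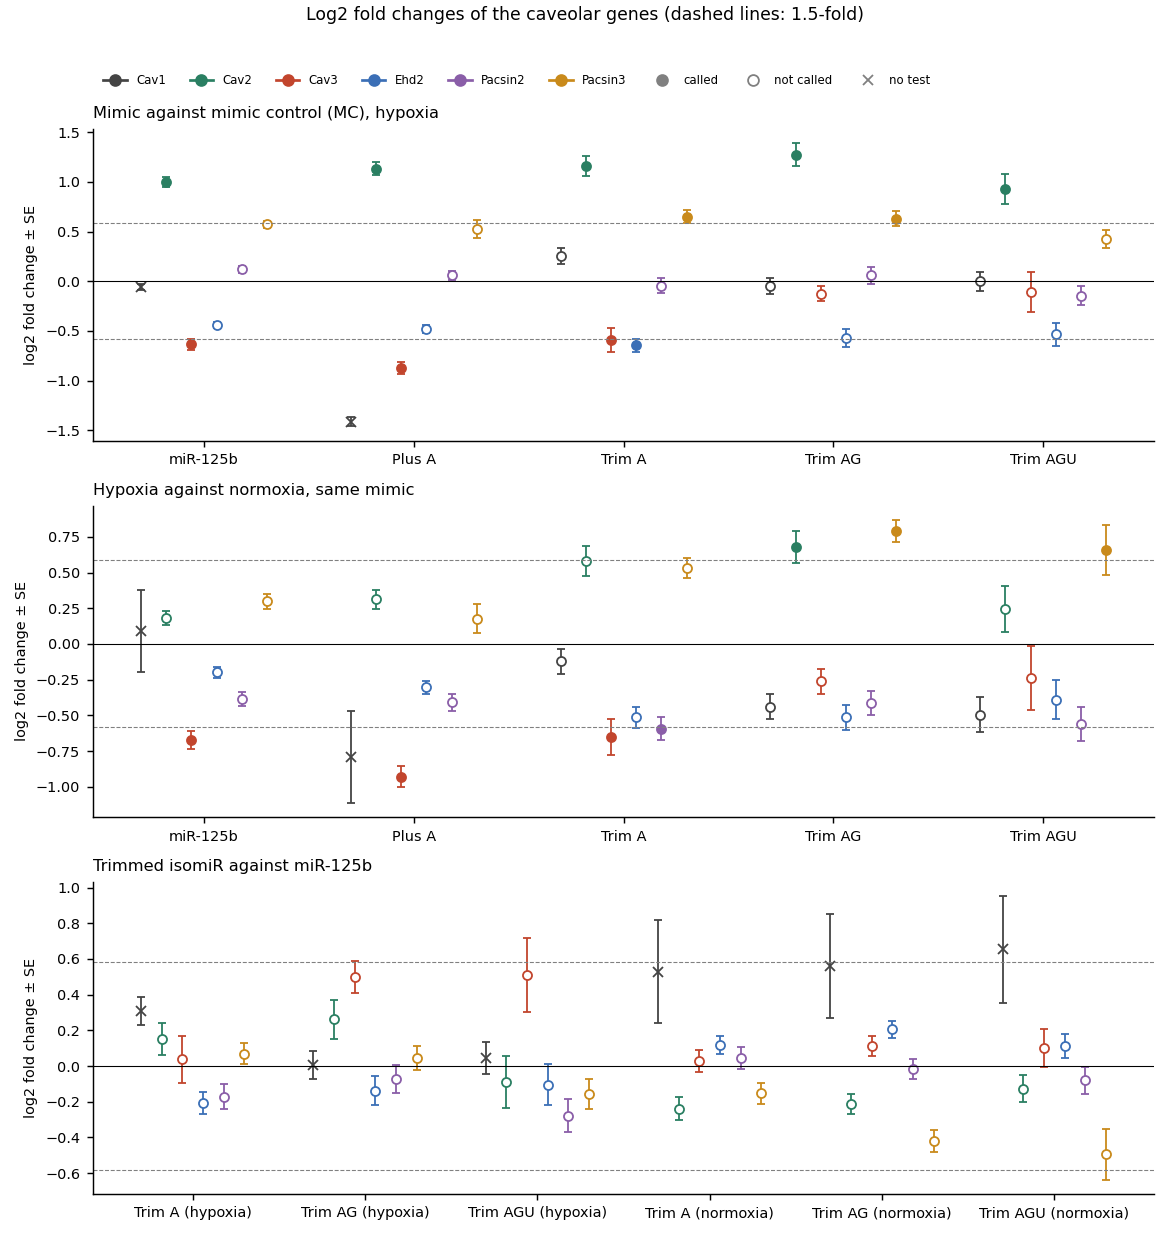
Log2 fold changes of the 6 genes with their standard errors, for each mimic against MC in hypoxia (top), hypoxia against normoxia with the same mimic (middle) and the trimmed isomiRs against miR-125b (bottom). Filled points were called, open points were not, crosses were not tested and dashed lines mark 1.5-fold; Cav2 is the highest gene with all 5 mimics against MC, at 0.93 to 1.27.

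Against miR-125b itself, no trimmed isomiR gave a call in any tested member. In hypoxia it was 0 of 5 members with Trim A, where 0.873% of 15115 genes were called, 0 of 5 with Trim AG, where 19.3% of 15305 genes were called, and 0 of 5 with Trim AGU, where 3.75% of 15051 genes were called. In normoxia it was 0 of 5 with Trim A, where 0.414% of 14732 genes were called, 0 of 5 with Trim AG, where 13.9% of 14864 genes were called, and 0 of 5 with Trim AGU, where 11.4% of 14720 genes were called. By the adjusted p alone, at any fold, 1 member (Cav3) passed with Trim AG in hypoxia, where 41.4% of genes did. In normoxia 3 members passed with Trim AG, where 38.5% of genes did, and 1 with Trim AGU, where 25.0% of genes did. Those of normoxia were Cav2 (-0.21, SE 0.06, edgeR adjusted p = 0.0161), Ehd2 (0.21, SE 0.05, 0.00763) and Pacsin3 (-0.42, SE 0.06, 0.000576) with Trim AG, and Pacsin3 (-0.49, SE 0.14, 0.0329) with Trim AGU. Without the first normoxia replicate of miR-125b, the Trim AG values were -0.20, 0.21 and -0.38 and still had an adjusted p below 0.05, whereas Pacsin3 with Trim AGU did not (-0.46).

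Whether the difference between Trim AG and miR-125b depended on oxygen was tested as an interaction. Of the 5 tested members, 0 were called, where 11.3% of 15603 genes were called. At any fold, 4 had an adjusted p below 0.05, where 22.7% of genes did. They were Cav2 (0.46, SE 0.13, edgeR adjusted p = 0.0223), Cav3 (0.37, SE 0.11, 0.0246), Ehd2 (-0.35, SE 0.09, 0.0176) and Pacsin3 (0.46, SE 0.09, 0.00363). A positive value means that Trim AG exceeded miR-125b by more in hypoxia than in normoxia. Without 1 library at a time, the adjusted p rose to at most 0.0604 for Cav2, 0.0711 for Cav3, 0.0527 for Ehd2 and 0.0140 for Pacsin3, so that only Pacsin3 stayed below 0.05 throughout. No member had an adjusted p below 0.05 for Trim A (0.605% of 15534 genes called) or Trim AGU (0.966% of 15525 genes called).

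The coat of the caveola did not move as a unit. Of the 4 cavins, 2 fell with all 5 mimics against MC in hypoxia and the other 2 were not called, where 21.9% to 37.2% of all genes were called. Murc (cavin 4), the muscle cavin, had a mean of 85.0 CPM with MC and 11.4 to 22.8 CPM in the other hypoxia groups, with log2 fold changes of -1.86 to -2.83. Sdpr (cavin 2) had 483 CPM with MC and 152 to 226 CPM, with log2 fold changes of -1.07 to -1.58. Ptrf (cavin 1), which every caveola needs, was between -0.13 and 0.51, and Prkcdbp (cavin 3) between -0.41 and 0.30. Both log2 ranges include values with an adjusted p below 0.05, and none reached 1.5-fold. Murc was called lower against MC also with Trim AG and Trim AGU, where Cav3 was not called. Against miR-125b in hypoxia, Murc was called lower with Trim AG (-0.97, SE 0.11, edgeR adjusted p = 0.000276), where 19.3% of genes were called. Prkcdbp was lower with Plus A than with miR-125b in hypoxia (-0.42, SE 0.10, edgeR adjusted p = 0.0257), under 1.5-fold. The interaction of Trim AG with oxygen was called for Sdpr (-0.70, SE 0.12, edgeR adjusted p = 0.00219), where 11.3% of genes were called.

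Between oxygen conditions, where 20.9% to 32.8% of all genes were called, Murc was lower in hypoxia under all 5 mimics (-0.82 to -1.34), Sdpr under Trim AG (-1.01) and Trim AGU (-0.82), and Prkcdbp under Plus A (-0.91). Ehd3, a paralog of Ehd2 that works in endosomal recycling, was lower with all 5 mimics against MC (-0.62 to -0.92) and lower in hypoxia under all 5 (-0.90 to -1.66). In normoxia it was higher with Trim AG (0.77) and Trim AGU (0.92) than with miR-125b. Ehd4 was lower in hypoxia under 4 of the mimics (-0.60 to -0.71) and Ehd1 under Trim AG (-0.62). In the list of 4 paralogs, 3 passed the filter on low counts and Pacsin1 did not.

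**Figure D4:**
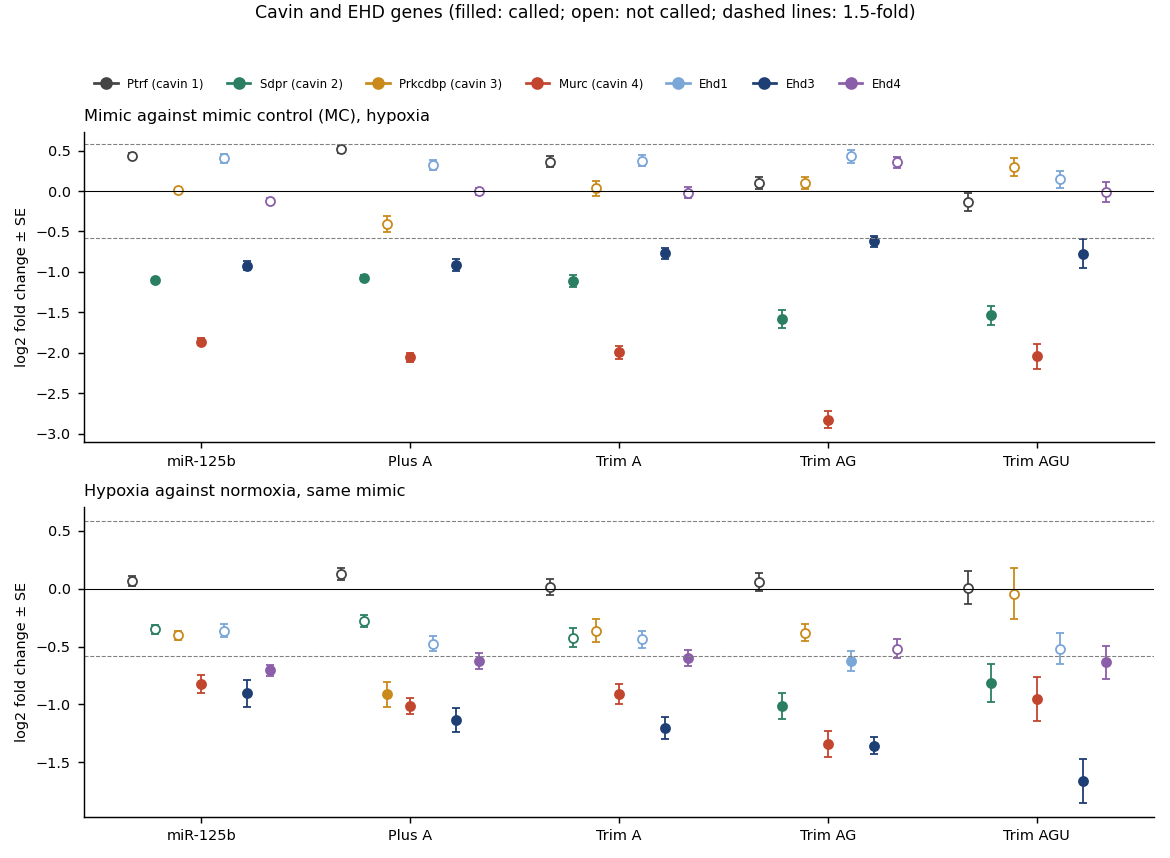
Log2 fold changes with standard errors of the 4 cavins and the EHD paralogs that passed the filter, for each mimic against MC in hypoxia (top) and for hypoxia against normoxia (bottom). Filled points were called and dashed lines mark 1.5-fold; Murc and Sdpr lie at -1.07 or lower with every mimic against MC, while Ptrf stays between -0.13 and 0.51.

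Of 8 kinases and partners of caveolins, 0 to 2 were called lower and none higher against MC, where 21.9% to 37.2% of all genes were called. It was 0 with miR-125b, 1 with Trim A and 2 with each of the others. Those called were Src with Plus A (-0.60), Trim A (-0.71), Trim AG (-1.02) and Trim AGU (-0.66), and Ror1 with Plus A (-1.09), Trim AG (-0.67) and Trim AGU (-1.13). SRC phosphorylates CAV1, and ROR1 is a receptor-like kinase that binds cavin 1 and CAV1. Ror1 was also lower with Plus A than with miR-125b in hypoxia (-0.82, SE 0.11, edgeR adjusted p = 0.00234). Of the 2 flotillins, scaffold proteins of other membrane domains, Flot1 rose with Trim AG (0.59) and Flot2 with Trim AGU (0.71) against MC. Of 12 genes of the clathrin route, 0 to 2 rose and 1 or 2 fell with each mimic against MC, beside the same share of all genes, and the adaptor gene Dab2 fell with all 5 (-1.44 to -2.31). Dnm1, a dynamin, fell with Trim AG (-1.69) and Trim AGU (-1.07), also against miR-125b in hypoxia (-1.79 and -1.17) and in normoxia (-1.19 and -1.11). The adaptor subunit gene Ap2a1 rose with Plus A (0.59), Ap2m1 with Trim AGU (0.66), and the light chain gene Clta with Trim AG (0.64) and Trim AGU (0.89). Of 11 muscle membrane partners of CAV3, 2 to 4 fell against MC and 1 rose with Trim AG alone, beside the same 21.9% to 37.2% of all genes, with Sgcb, a sarcoglycan, down with all 5 (-1.81 to -2.78). Dag1, the dystroglycan gene, fell with Plus A (-0.80), Trim A (-0.64), Trim AG (-1.90) and Trim AGU (-2.44). Capn3, a muscle calpain, fell with miR-125b (-0.85), Plus A (-1.09), Trim A (-0.95) and Trim AG (-1.15), and Bves rose with Trim AG (0.84).

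Between oxygen conditions, Ror1 was lower in hypoxia under Plus A (-0.81), Trim A (-0.87), Trim AG (-0.97) and Trim AGU (-1.41). Fyn, another kinase of the Src family, was higher under Plus A (0.64), Trim AG (0.97) and Trim AGU (0.68). No flotillin was called between oxygen conditions. Dab2 was lower under Trim A (-0.73), Trim AG (-0.62) and Trim AGU (-1.18), and Ap2s1, an adaptor subunit gene, under miR-125b (-0.62) and Plus A (-0.81). Among the muscle membrane partners, Dag1 was lower in hypoxia under all 5 mimics (-0.85 to -2.17) and Dysf, the dysferlin gene, under miR-125b (-0.68), Plus A (-0.75) and Trim A (-0.77). Sgcd was lower under miR-125b (-0.86) and Plus A (-0.89), while Capn3 was higher under miR-125b (0.61). Against miR-125b in normoxia, Sgcb was higher with Trim A (0.75) and Trim AGU (1.45), and Dag1 lower with Trim AG (-0.63) and Trim AGU (-0.84). The interaction of Trim AG was called for Dmd (0.70), Sgcb (-1.01) and Dag1 (-1.02). Of the calls in these lists that use replicate 1 of Normoxia miR-125b, 21 of 24 were kept without it, and of those that use replicate 1 of Normoxia Plus A, 9 of 11. The calls lost were those of Ap2s1 under miR-125b (-0.57) and of Ror1 (-0.52) and Sgcb (-0.48) under Plus A, all between oxygen conditions, and the interactions of Sgcb for Trim A and Trim AGU (edgeR adjusted p = 0.0552 and 0.0803).

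The medians of these lists against MC, beside a median of all genes of -0.02 to 0.0033, were -0.54 to -0.83 for the cavins, -0.12 to 0.36 for the EHD and PACSIN paralogs, -0.20 to -0.66 for the kinases and partners, 0.09 to 0.60 for the flotillins, 0.05 to 0.17 for the clathrin route and -0.12 to -0.38 for the muscle membrane partners.

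The genes whose pattern was most like that of Cav1 were found by correlation. Over 16284 other genes and 33 libraries, the highest Pearson r with Cav1 on log2 CPM were those of C1galt1 (0.95), Zc3h7a (0.93), Tax1bp3 (0.93), Btg3 (0.92), Cpsf2 (0.91), Dlst (0.91), Adam17 (0.90), Rwdd2b (0.89), Map4 (0.89) and Ei24 (0.88). In 9 of these 10 genes, all but Map4, the 6 libraries of the lower Cav1 set did not overlap with the other 27. Tax1bp3, a small PDZ protein gene, had 64.4, 70.4 and 68.6 CPM in Hypoxia Plus A and 133, 131 and 133 CPM in Hypoxia miR-125b. In normoxia it had 146, 81.0 and 78.5 CPM in replicates 1, 2 and 3 labelled Plus A and 80.3, 144 and 142 CPM in those labelled miR-125b. C1galt1, which codes for an enzyme of O-glycan synthesis, had 55.1, 23.3 and 26.3 CPM and 25.3, 57.0 and 59.8 CPM in the same normoxia libraries. The genes were picked for their likeness to Cav1 over these same libraries, so that they share its division, first replicates included, follows largely from the choice.

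**Figure D5:**
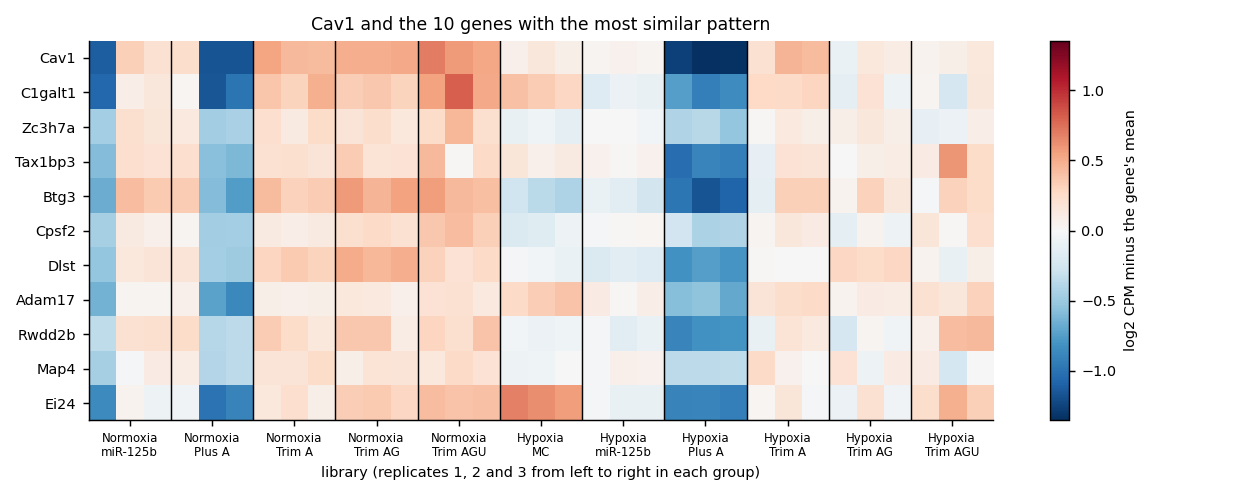
Log2 CPM minus the mean of the gene over 33 libraries, for Cav1 and the 10 genes with the highest Pearson r (0.88 to 0.95), with replicates 1, 2 and 3 from left to right in each group. The 3 libraries of Hypoxia Plus A, replicates 2 and 3 of Normoxia Plus A and replicate 1 of Normoxia miR-125b are low in every row.

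The lowest r were those of Prpf40b (-0.75), Tg (-0.74), RGD1308117 (-0.74), Aplp1 (-0.73) and Ift81 (-0.73). Among the members, r with Cav1 was -0.26 for Cav2, 0.41 for Cav3, 0.19 for Ehd2, 0.18 for Pacsin2 and -0.41 for Pacsin3. By Spearman correlation the values were -0.41, 0.47, 0.37, 0.41 and -0.57. No other member thus came near the r of the 10 genes above, and r with the cavins is not given here. When the 6 normoxia libraries of Plus A and miR-125b were left out, 6 of the 10 genes were again among the top 10, and r over the remaining 27 libraries was 0.93 for C1galt1, 0.92 for Btg3 and 0.91 for Tax1bp3. The r are descriptions, since libraries of a group are not independent of each other.

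For Normoxia MC only the authors' mean of normalized counts was used, with no spread and no test. The authors' means of Cav1 were 4571 with Plus A and 7325 with MC, and those of Cav2 were 2034 and 1024. For Pacsin3 they were 2394 and 1377, for Cav3 1274 and 1567, for Ehd2 9768 and 11182, and for Pacsin2 4002 and 3748. Cav2 (1.99-fold) and Pacsin3 (1.74-fold) thus had the higher mean with Plus A in normoxia too, while Ehd2 (0.874-fold) and Cav3 (0.813-fold) had a slightly lower mean. The Plus A means include the replicate whose Cav1 value stood apart.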

How the data were processed

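Poly-A RNA of H9C2 cells was sequenced without strand information, so counts of overlapping or near-identical genes are uncertain. The deposited tables compare pairs of groups, and 11 of them hold raw counts per gene and library together with FPKM values made by the authors. In the remaining table the authors gave mean normalized expression (a signal) of Normoxia Plus A and Normoxia MC. Log2 fold changes and p-values of the authors' own tests are also in the tables and were not used. HISAT2 and StringTie are named in the submitters' processing notes, and the genome build is not given in the sources used here. The labels name the trimmed mimics by number in places, and these were taken as Trim A, Trim AG and Trim AGU by the bases removed.

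Tables were joined by gene identifier, with a count of 0 for a gene that a table leaves out, and 0 values conflicted. CPM is the count divided by the library total. Each comparison was fitted on its own 6 libraries with edgeR 4.0.16 in R 4.3.3 (TMM, filterByExpr, quasi-likelihood test), and p-values were adjusted by Benjamini-Hochberg over all genes tested. The interactions of oxygen and isomiR used 12 libraries. The SE was obtained from the log2 fold change and the F statistic. Correlations and distances used log2 CPM with a prior count of 2.

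The members and gene lists were chosen with earlier results of these data known. Named were all 6 members, some of the called genes of each list (at most 3 per direction in each comparison), and the 10 genes most like Cav1 with the 5 least like it. On simulated data for Hypoxia Trim AG against Hypoxia MC (15315 genes), 82.3% of genes changed by a log2 fold change of 1 and 99.3% of those changed by 2 were found. For Hypoxia Trim AGU against Normoxia Trim AGU (14811 genes) it was 31% and 90.7%, and for the interaction of Trim AG (15603 genes) 71.7% and 96%. Each of 3 simulations per fit changed only 200 genes, whereas 1757 to 5692 genes were called in the data for these fits. The cut-off set by the adjusted p depends on how many genes change, so these shares do not carry over to the data. Alternatives were DESeq2 1.42.0, library totals without TMM, no filter, 1 joint fit of all 33 libraries, a block for the replicate number, removal of 1 library at a time, no fold threshold and a threshold of 2. The precision of a value is the spread between 3 libraries of a group.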

Additional observations from a re-analysis of the deposited data

Results flagged for a closer look

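For the difference between Trim AG and miR-125b, 4 of the 5 tested members had an adjusted p below 0.05 in the interaction test of edgeR with oxygen, where 22.7% of 15603 genes did. None of the 4 passed 1.5-fold. Cav2 had an interaction of 0.46 on the log2 scale, with Trim AG against miR-125b at 0.26 in hypoxia and -0.21 in normoxia. Cav3 had 0.37, with 0.50 in hypoxia and 0.11 in normoxia. Ehd2 had -0.35, with -0.14 in hypoxia and 0.21 in normoxia. Pacsin3 had 0.46, with 0.05 in hypoxia and -0.42 in normoxia. Without replicate 1 of Normoxia miR-125b, whose Cav1 level stood apart, the interactions were 0.45, 0.37, -0.36 and 0.42, with adjusted p of 0.0430, 0.0447, 0.0301 and 0.00764. Of 12 libraries left out in turn, the adjusted p of Cav2 was at or above 0.05 for 3 (up to 0.0604), that of Cav3 for 5 (up to 0.0711) and that of Ehd2 for 1 (0.0527). That of Pacsin3 reached at most 0.0140. Cav3 also lost it in the joint fit of all libraries (adjusted p = 0.189) and Ehd2 with no filter on low counts (adjusted p = 0.0538).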

How the results depend on the processing

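The 6 genes gave 101 tested results, and the alternatives gave 1201 values for them, of which 1149 kept their direction and their side of the threshold. Another 16 no longer passed, 16 newly passed and 20 changed sign. The calls lost by the adjusted p were all of Pacsin3 between oxygen conditions under Trim AGU, and the others were lost by falling under 1.5-fold, including Cav3 for Trim A against MC (-0.58) and Pacsin2 for Trim A between oxygen conditions (-0.57) in the joint fit of all libraries. DESeq2 kept 100 of the 101 results. Of the results that rest on them, 34 of 35 kept their call and direction without replicate 1 of Normoxia miR-125b, 5 of 5 without replicate 1 of Normoxia Plus A, and 21 of 22 without replicate 2 of Hypoxia Trim AGU.

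With no fold threshold, the number of members called against Hypoxia MC was 5 with miR-125b, where 9008 of 15143 genes were called. It was 4 with Plus A, where 8583 of 15159 genes were called, and 3 with Trim AGU, where 4491 of 15026 genes were called. Against miR-125b it was 1 with Trim AG in hypoxia, 3 with Trim AG in normoxia and 1 with Trim AGU in normoxia. In these fits 41.4%, 38.5% and 25.0% of all genes were called. Between oxygen conditions the number of members called was 5 under miR-125b (7633 of 15028 genes) and 4 under Plus A (7399 of 15032 genes). It was 5 under Trim A (7126 of 14973 genes), 6 under Trim AG (8338 of 15256 genes) and 3 under Trim AGU (4471 of 14811 genes). For the interaction of Trim AG it was 4, where 22.7% of genes were called. With a threshold of 2-fold, for which the share of all genes is not given here, the number against MC was 1 with each of miR-125b, Plus A, Trim A and Trim AG. It was 0 for Trim AGU against MC, and between oxygen conditions 0 under all 5 mimics. With library totals in place of TMM it was 2 for Trim AGU against MC and 2 for Trim AGU between oxygen conditions. That scaling moved the median of all genes to -0.15 for Trim AGU against MC, -0.11 for Trim AGU against miR-125b in hypoxia, 0.12 for Plus A between oxygen conditions and -0.11 for the interaction of Trim AGU. Of the 10 genes most like Cav1, 4 were again in the top 10 by Spearman correlation and 6 without the normoxia libraries of miR-125b and Plus A.

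Without 1 library at a time, the number called against MC was 1 to 3 for miR-125b and 2 to 3 for Plus A. It was 3 to 4 for Trim A, 2 to 3 for Trim AG and 1 to 2 for Trim AGU. It was 0 to 1 for Trim AGU against miR-125b in normoxia, 1 to 3 for Trim A between oxygen conditions and 0 to 1 for Trim AGU between oxygen conditions. The shares of all genes in these fits are not given here.

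Values near 0 changed sign. With library totals in place of TMM, Pacsin2 was at -0.0038 for Trim AG against MC and at 0.029 for Trim AG against miR-125b in normoxia, and the interaction of Cav2 for Trim AGU was -0.048. By DESeq2, Cav1 was at 0.015 for Trim AGU against MC. Without 1 library at a time, Cav1 was at -0.093 to 0.024 for Trim AG and at -0.021 to 0.021 for Trim AGU against MC, and Cav3 at -0.36 to 0.053 for Trim AGU against MC. In hypoxia against miR-125b, Cav3 was at -0.038 to 0.18 for Trim A and Cav2 at -0.19 to 0.046 for Trim AGU. In normoxia against miR-125b, Cav3 was at -0.0036 to 0.073 for Trim A and Pacsin2 at -0.058 to 0.017 for Trim AG. The interaction of Cav3 for Trim A was -0.060 to 0.16 and that of Cav2 for Trim AGU -0.048 to 0.16. The cause was not tested.

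Replicate numbers did not pair the libraries, since the correlations of same-numbered deviations were -0.16 to 0.08 and in 0 of 18 comparisons were all above 0.1. With the replicate number as a block, 100 of the 101 results kept their call. The exception was Pacsin3 between oxygen conditions under Trim AGU (log2 fold change 0.68, edgeR adjusted p = 0.0557), which left 0 members called there. The block lowered the number of genes called in 20 of the 21 fits.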
